A study of Tribolium castaneum with 17 samples.

Results

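Transcripts that rise between 0-5 hr and 6-11 hr of embryonic development were described in the red flour beetle *Tribolium castaneum*. A gene model was taken as a member when the lower of its levels in the 6-11 hr libraries S4 and S5 was at least 5 CPM (reads scaled to a common library size and normalized between libraries) and at least 4 times its highest level in the 0-5 hr libraries S1 to S3. Of 12302 gene models, 224 met both thresholds, of which 8 were not analysed here, so that 216 members remained (1.76% of all gene models). Library S6, the third of the 6-11 hr embryos, took no part in the choice. These values chose the members, so the rise itself is a description, and nothing is read from counts of calls in that contrast.

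The study sequenced poly(A) RNA of wild type beetles of strain GA2 from 17 libraries. Embryos of 6-11 hr gave libraries S4 to S6 and embryos of 0-5 hr gave S1 to S3, each from 80 to 100 pooled embryos kept at one rearing temperature. The adult groups, all from beetles 4 days after eclosion and 30 beetles per library, were testis (S16 and S17), ovary (S13 to S15), male carcass without testis (S10 to S12) and female carcass without ovary (S7 to S9). The embryos were described as 3 independent biological replicates, each processed on a single day, and they were laid by adults older than those dissected, whereas the ovaries came from virgin females. Each embryo library spans a window of 5 hr, so it mixes embryos of different ages.

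In insects the egg is loaded with maternal RNA during oogenesis, and early development runs on this store while the zygotic genome is silent. During the maternal-to-zygotic transition part of the maternal RNA is degraded and transcription from the zygotic genome starts, first for a small set of genes and then more widely. A transcript that rises after this point in poly(A) RNA can be one newly transcribed by the embryo, and it may or may not be used again in adult tissues. Bulk RNA cannot tell more cells with a transcript from more RNA per cell. The files do not pair the members with gene names, and of the members only TC030997 is annotated in the study's text, as an early zygotic gene known from earlier work. All others are therefore given by identifier, with no role and no sequence.

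The libraries held 18664366 to 34847471 reads in gene models, the embryo libraries 20221563 to 31126463, and 1 read was worth 0.0217 to 0.0595 CPM. Caudal (TC032769), an anterior/posterior patterning gene of the embryo, stood at 118 to 151 CPM in all 6 embryo libraries and at 2.00 to 40.8 CPM in adults. The testis markers TC009035 (β2-tubulin homolog) and TC006703 (Rad50 homolog) and the carcass marker TC010476 (flightin homolog, a flight muscle protein) were highest in their labelled tissues. Of 3 markers taken for ovary, TC034053 was highest among adults there, at 455 to 549 CPM, against 30.5 to 81.3 CPM in the other adult libraries. TC009818 (loco homolog) and TC013108 (quail homolog) were both higher in every female carcass library than in every ovary library. Among adults S11 stood apart. A list of 124 carcass genes, at 50 CPM or more in female carcass and at least 16 times both gonads, was chosen on these libraries, with the 6 members that met these limits left out. It had a median of 49.9% of its female carcass mean in S11, and 87.8% and 83.7% in S10 and S12.

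The level reached at 6-11 hr varied widely among the members. The lower of S4 and S5 ran from 5.02 to 363 CPM with a median of 11.45 CPM, and was at least 20 CPM for 61 members and at least 100 CPM for 4. The highest of S1 to S3 ran from 0.0917 to 44.7 CPM with a median of 1.47 CPM. The ratio of these values had a median of 7.43 and reached 106. It was at least 10 for 72 members, at least 20 for 31 and at least 50 for 9. Libraries S4 and S5 gave close values, since the larger exceeded the smaller by a median of 1.07 times and by less than 1.2 times for 198 members. CPM is not divided by transcript length, so a higher CPM of one gene than of another is a larger share of reads, not of transcripts.

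Members just inside and just outside the thresholds lay close together. The ratio was 4.00 for TC004340, 4.01 for TC006056 and 4.02 for TC033874, all inside, and 3.96 for TC010593, 3.94 for TC034129 and 3.94 for TC032742, all outside. The lower of S4 and S5 was 5.02 CPM for TC006056, 5.06 CPM for TC012639 and 5.09 CPM for TC031485, all inside, and 4.99 CPM for TC034970, 4.99 CPM for TC015245 and 4.96 CPM for TC034571, all outside. The number of members moved to 514 with a minimum of 1 CPM, to 123 with 10 CPM, to 447 with a ratio of 2 and to 96 with a ratio of 8.

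The members differed widely in their adult levels, on which the rule set no limit. By the highest of the 11 adult libraries, with limits chosen after the values were seen, 22 members stayed under 10 CPM in every adult library, 92 reached 10 to under 100 CPM and 102 reached 100 CPM or more. They are called low, middle and high in adults here. Of the 22 low members, 6 were not tested because they did not reach 5 CPM in 3 libraries. On the 210 members tested, 16 were low (7.62%, against 4.84% of the genes tested), 92 middle (43.8%, against 53.5%) and 102 high (48.6%, against 41.7%). Summed over the 22 low members, the 6-11 hr libraries S4, S5 and S6 held 442, 456 and 107 CPM, against 41.3, 19.7 and 39.8 CPM in the 0-5 hr libraries S1, S2 and S3. Summed over the 102 high members, S4, S5 and S6 held 3276, 3303 and 535 CPM, against 261, 387 and 239 CPM in S1, S2 and S3, and the 3 female carcass libraries held 57225 to 65935 CPM.

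**Figure D1:**
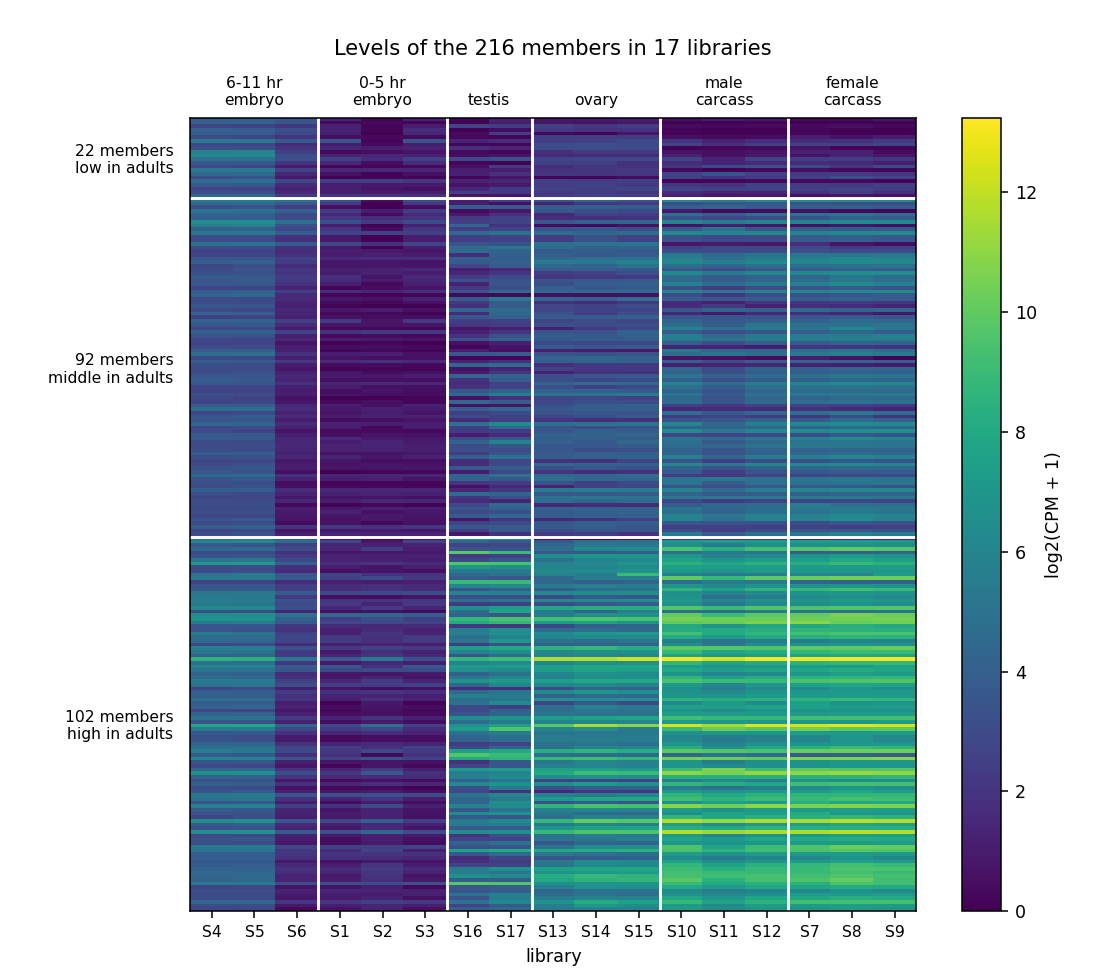
Levels of the 216 members (rows) in the 17 libraries (columns), as log2(CPM + 1). Rows are split into the 22 members low in adults, the 92 middle and the 102 high, and ordered by the position of S6 within each. Most of the 102 high members are brighter in both carcasses than in any embryo library, and S6 is darker than S4 and S5 in all 3 blocks.

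Among the 22 low members were 16 whose levels in S4 and S5 both exceeded every adult library, and 6 middle members did the same. These 22 are 10.2% of the members, and 11 of them also exceeded every adult library in S6. Without the members not tested, the shares were 7.62% for S4 and S5, against 24.0% of the genes tested, and 4.76% with S6 as well, against 22.6%. The rule used S4 and S5, so these shares are a description. The clearest was TC011658, with 74.7, 76.9 and 7.67 CPM in S4, S5 and S6, against 1.47, 1.68 and 1.31 CPM in S1, S2 and S3. Its adult levels were 0.412 and 0.688 CPM in testis, 1.92 to 2.02 CPM in ovary, 0.476 to 1.51 CPM in male carcass and 0.544 to 1.49 CPM in female carcass. All 3 libraries of 6-11 hr lay above every other library, S6 by the least.

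TC011658 had neighbours that behaved alike. The second identifier of each gene model is a running number from 2 to 16591, taken here as the order of the gene models, and TC011658, TC011659, TC011660 and TC011661 carried 14071, 14073, 14074 and 14075. TC011659 had 24.0, 27.5 and 6.41 CPM in S4, S5 and S6, against 4.34, 4.70 and 3.25 CPM in S1, S2 and S3. TC011660 had 38.6, 44.2 and 5.16 CPM in S4, S5 and S6, against 1.77, 1.80 and 1.65 CPM in S1, S2 and S3. TC011661 had 20.5, 20.3 and 4.18 CPM in S4, S5 and S6, against 3.09, 3.10 and 2.82 CPM in S1, S2 and S3. None of the 4 exceeded 4.95 CPM in any adult library, and in each the adult maximum was in ovary.

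TC010421, with no call because it failed the filter for testing, had 53.4, 57.8 and 4.65 CPM in S4, S5 and S6, against 0.275, 0.414 and 0.712 CPM in S1, S2 and S3. It was highest among adults in ovary, at 2.39, 4.14 and 3.63 CPM, and stayed at 1.44 CPM or less in the other adult libraries. TC033670 had 16.1, 19.0 and 9.99 CPM in S4, S5 and S6, against 0.214, 0.266 and 0.0854 CPM in S1, S2 and S3. It gave no read in 4 of the 6 carcass libraries, where a count of 0 allows up to 0.146 to 0.178 CPM by counting error alone, and reached 1.03 CPM in one testis library. Both transcripts were higher in all 3 libraries of 6-11 hr than in every other library, although the S6 level of TC010421 was close to its ovary level. Of the 22 low members, 15 had their highest adult mean in ovary, 4 in testis, 2 in male carcass and 1 in female carcass.

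Most of the 102 high members stood in the embryo at a small share of an adult level. The class was cut at 100 CPM or more in an adult library, so a small share partly follows from the cut and is a description. The mean of S4 and S5 was a median of 6.34% of the female carcass mean, with a lowest value of 1.77%, and was under 10% for 78 of the 102. The exceptions were TC034894, at 1532% of a low carcass level, and TC014616, at 91.4%, both highest among adults in testis, and the other 100 were under 50%. TC030701, the member with the highest CPM, had 374, 363 and 37.8 CPM in S4, S5 and S6, against 11.8, 44.7 and 8.54 CPM in S1, S2 and S3. It had 429 and 564 CPM in testis, 3268 to 5001 CPM in ovary, 5624 to 8835 CPM in male carcass and 8600.5 to 9653 CPM in female carcass, and the embryo level in S6 lay below that of S2.

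The next member by this order, TC003326, had 217, 227 and 19.2 CPM in S4, S5 and S6, against 6.85, 28.1 and 5.10 CPM in S1, S2 and S3, and 5537 to 6806 CPM in female carcass. TC008240 had 93.9, 103 and 14.2 CPM in S4, S5 and S6, against 9.08, 21.3 and 7.66 CPM in S1, S2 and S3, and 3116 to 3778 CPM in female carcass. TC000933 had 96.9, 109.5 and 10.4 CPM in S4, S5 and S6, against 6.20, 16.4 and 4.47 CPM in S1, S2 and S3, and 3021 to 3842 CPM in female carcass. In all of these S2 was the highest 0-5 hr library and exceeded S6, so the 3 libraries of 6-11 hr overlapped those of 0-5 hr. TC007136 followed the same order, with 94.6, 104 and 7.99 CPM in S4, S5 and S6, against 3.42, 11.3 and 2.85 CPM in S1, S2 and S3, and 1995 to 2458 CPM in female carcass.

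Other high members kept S6 above all of S1 to S3. TC006664 had 144, 158 and 16.4 CPM in S4, S5 and S6, against 2.44, 3.31 and 2.08 CPM in S1, S2 and S3. Among adults it was highest in testis, at 816 and 701 CPM, with 318 to 476 CPM in female carcass and 59.5 to 123 CPM in ovary. TC014100 had 88.7, 91.5 and 31.7 CPM in S4, S5 and S6, against 21.1, 19.4 and 16.2 CPM in S1, S2 and S3. TC008680 had 62.4, 66.4 and 25.1 CPM in S4, S5 and S6, against 6.23, 0.886 and 5.50 CPM in S1, S2 and S3. Here S2 was the lowest of the 0-5 hr libraries, in contrast to TC030701.

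**Figure D2:**
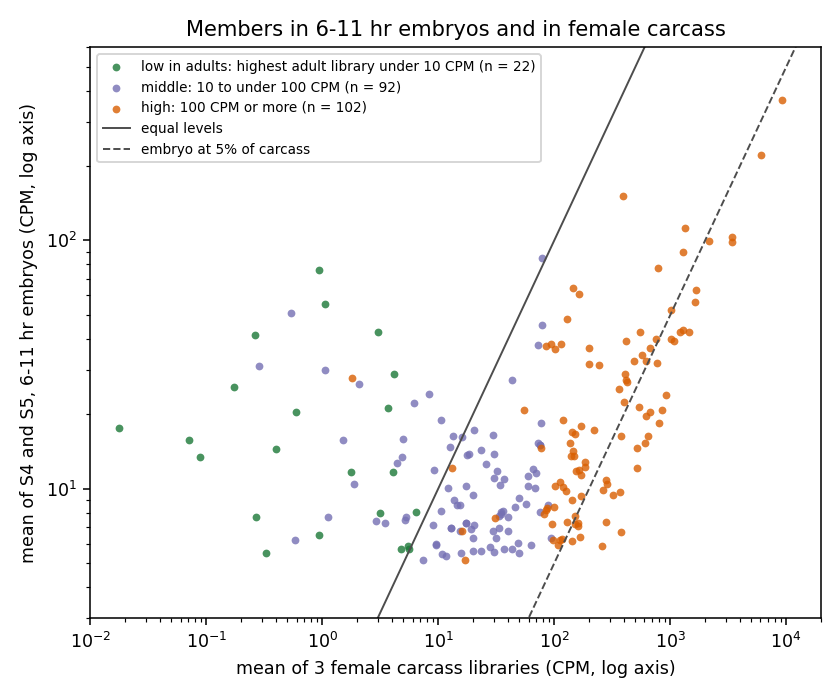
Mean of the 6-11 hr libraries S4 and S5 (y axis, CPM) against the mean of the 3 female carcass libraries (x axis, CPM) for each member, both on log axes, coloured by class. The solid line marks equal levels and the dashed line an embryo level of 5% of the carcass level, and the 102 high members lie around the dashed line with a median of 6.34%. The classes were cut on adult levels, so their places along the x axis partly follow from the cut.

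The carcass list of 124 genes, none of them a member, was set beside the members in the same libraries. It summed to 767, 909 and 369 CPM in S4, S5 and S6, against 481, 1154 and 415 CPM in S1, S2 and S3, and to 130528 to 256540 CPM in the carcass libraries. Flightin was at 2.34, 2.29 and 0.279 CPM in S4, S5 and S6, against 0.886, 4.05 and 0.541 CPM in S1, S2 and S3, so S2 was the highest embryo library for both. The list stood at a median of 0.324%, 0.400% and 0.113% of its female carcass mean in S4, S5 and S6, against 0.151%, 0.493% and 0.106% in S1, S2 and S3. The 102 high members stood at a median of 6.38%, 6.33% and 0.858% in S4, S5 and S6, against 0.397%, 0.607% and 0.387% in S1, S2 and S3. The rule chose the members for high values in S4 and S5 and low ones in S1 to S3, so nothing is read from the difference between these medians. The part of adult RNA in the S2 levels was not tested.

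The largest ratios belonged to members almost absent before 5 hr. TC031670 had the largest ratio, 106, with 11.2, 9.68 and 1.25 CPM in S4, S5 and S6, against 0.0917, 0.0295 and 0.0569 CPM in S1, S2 and S3, each of which is 3 reads or fewer, so that counting error alone allows a ratio of 35.8 to 515 (exact binomial, 95%). TC009957 had 16.6, 21.2 and 2.09 CPM in S4, S5 and S6, against 0.153, 0.0886 and 0.171 CPM in S1, S2 and S3, and 8.43 to 12.3 CPM in female carcass. TC015186 had 16.7, 14.7 and 1.72 CPM in S4, S5 and S6, against 0.244, 0.207 and 0.0854 CPM in S1, S2 and S3. In each of these S6 was more than 5 times the highest 0-5 hr library, although the level in S6 was near 2 CPM or less.

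Of the others among the 10 largest ratios, TC010421 and TC033670 were described above, and the remaining 5 were well expressed in adults. TC012717 had 38.3, 36.5 and 3.67 CPM in S4, S5 and S6, against 0.428, 0.384 and 0.655 CPM in S1, S2 and S3, and 75.1 to 103 CPM in female carcass. TC010154 had 12.6, 14.97 and 1.21 CPM in S4, S5 and S6, against 0.153, 0.207 and 0.0854 CPM in S1, S2 and S3, and 26.3 to 35.2 CPM in female carcass. TC032210, TC034838 and TC001432 had 5.41 to 10.8 CPM in S4 and S5, 0.465 to 0.744 CPM in S6, and 0.142 CPM or less in S1 to S3. All 5 were higher in female carcass than in S4 and S5, whereas TC010421 and TC033670 were not.

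TC030997, the member annotated as an early zygotic gene, had a ratio of 4.78, not far above the threshold. It had 7.71, 6.78 and 1.53 CPM in S4, S5 and S6, against 1.22, 1.42 and 1.28 CPM in S1, S2 and S3. It was also present in every adult library, at 24.1 and 18.0 CPM in testis, 10.9 to 12.1 CPM in ovary, 11.9 to 17.8 CPM in male carcass and 16.1 to 18.9 CPM in female carcass. Its level in S4 and S5 was thus below that of every adult library, and its level in S6 exceeded the highest 0-5 hr library only slightly.

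Library S6 was below S4 and S5 in all members, by very different amounts. It was below the lower of S4 and S5 for 216 of 216 members, against 51.7% of the genes tested. The members were chosen for high values in S4 and S5, so a lower S6 partly follows from the choice and is a description. S6 was a median of 17.3% of the mean of S4 and S5, with a range of 3.01% to 71.9%. A scale was set with the mean log2(CPM + 1) of S1 to S3 at 0 and that of S4 and S5 at 1. S6 lay on it at a median of 0.23, with a range of -0.23 to 0.85. At the median it was nearer to the 0-5 hr libraries than to its own group. At least 5 CPM was reached in S6 by 52 of the 216 members, against 7992 of the 12144 genes tested.

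S6 was nevertheless above the highest 0-5 hr library for 176 of the 216 members (81.5%), against 48.3% of the genes tested. It was within the range of S1 to S3 for 35 members and below all 3 for the other 5. At least 2 times the highest 0-5 hr library was reached by 72 members (33.3%), against 2.64% of the genes tested. At least 4 times was reached by 22 members, against 76 of the 12144 genes tested. Since the members were chosen with S1 to S3 low and S4 and S5 high, and S6 is a single library, this is a description. Only 8 members would have passed both thresholds in S6 as well, namely TC003085, TC033670, TC008680, TC006664, TC034894, TC011658, TC011283 and TC011140.

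The position of S6 differed between the adult classes in the median, with wide overlap. All 22 low members had S6 above the highest 0-5 hr library, as did 82 of the 92 middle and 72 of the 102 high members. The median position was 0.36 (0.15 to 0.85) in low, 0.24 (-0.13 to 0.81) in middle and 0.20 (-0.23 to 0.68) in high members. S2 was above both S1 and S3 for 71 high and 5 low members. The part of S2 in these differences was not tested. TC011283 came nearest to S4 and S5, with 14.03, 14.9 and 10.4 CPM in S4, S5 and S6, against 1.68, 0.0886 and 1.54 CPM in S1, S2 and S3. TC000432 had 46.3, 44.7 and 29.4 CPM in S4, S5 and S6, against 9.84, 0.473 and 7.92 CPM in S1, S2 and S3. TC033874 had 5.79, 5.16 and 3.49 CPM in S4, S5 and S6, against 1.28, 0.118 and 1.03 CPM in S1, S2 and S3. In all of these S2 was far below S1 and S3.

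At the other end were members for which S6 looked like an early library. TC015399 had 7.50, 7.96 and 0.232 CPM in S4, S5 and S6, against 0.0917, 0.207 and 0.0854 CPM in S1, S2 and S3. TC034316 had 5.79, 6.51 and 0.279 CPM in S4, S5 and S6, against 0.581, 1.42 and 0.456 CPM in S1, S2 and S3, and was thus lower in S6 than in any 0-5 hr library. Both were well expressed in adults, at 26.9 to 45.4 CPM for TC015399 and 129.7 to 164 CPM for TC034316 in female carcass.

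The 0-5 hr libraries were not alike either. S2 was below both S1 and S3 for 75 members (34.7%, against 33.5% of the genes tested) and above both for 110 (50.9%, against 49.9%), shares near the background. S2 was 25% or less of the mean of S1 and S3 for 24 members (11.1%, against 1.30% of the genes tested with reads in both) and at least 2 times that mean for 37 (17.1%, against 5.61%). The rule kept all of S1 to S3 low in the members, so these shares are a description. The 24 comprised 7 low, 13 middle and 4 high members, and the 37 comprised 3 middle and 34 high members and no low one. S6 exceeded the highest 0-5 hr library for 23 of the 24 and for 17 of the 37, and its median position was 0.51 in the 24 and 0.15 in the 37. Without S2 the rule would have given 250 members, and S6 would have exceeded the remaining 0-5 hr libraries for 202 of the 216.

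The 24 members low in S2, picked for that low level, show differences between embryo libraries of one group. TC004340 had 42.2, 43.0 and 12.6 CPM in S4, S5 and S6, against 10.5, 0.177 and 10.02 CPM in S1, S2 and S3. TC009479 had 24.0, 24.2 and 13.1 CPM in S4, S5 and S6, against 4.09, 0.0591 and 3.79 CPM in S1, S2 and S3. TC003085 had 48.8, 53.4 and 8.88 CPM in S4, S5 and S6, against 1.13, 0 and 1.25 CPM in S1, S2 and S3, where the 0 reads of S2 allow up to 0.0886 CPM. In TC004340, TC009479 and TC003085 the libraries fell in one order, with S2 lowest, S1 and S3 next, S6 above them and S4 and S5 highest. Of the 24, S6 exceeded the highest 0-5 hr library in 23, and not in TC014616. Low values in S2 and high ones in S4 and S5 were set by the choice of the 24. The place of S6 was not, but the examples were named after their values were seen. TC034949, another of the 24, had 13.6, 13.2 and 6.32 CPM in S4, S5 and S6, against 1.16, 0 and 1.77 CPM in S1, S2 and S3.

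**Figure D3:**
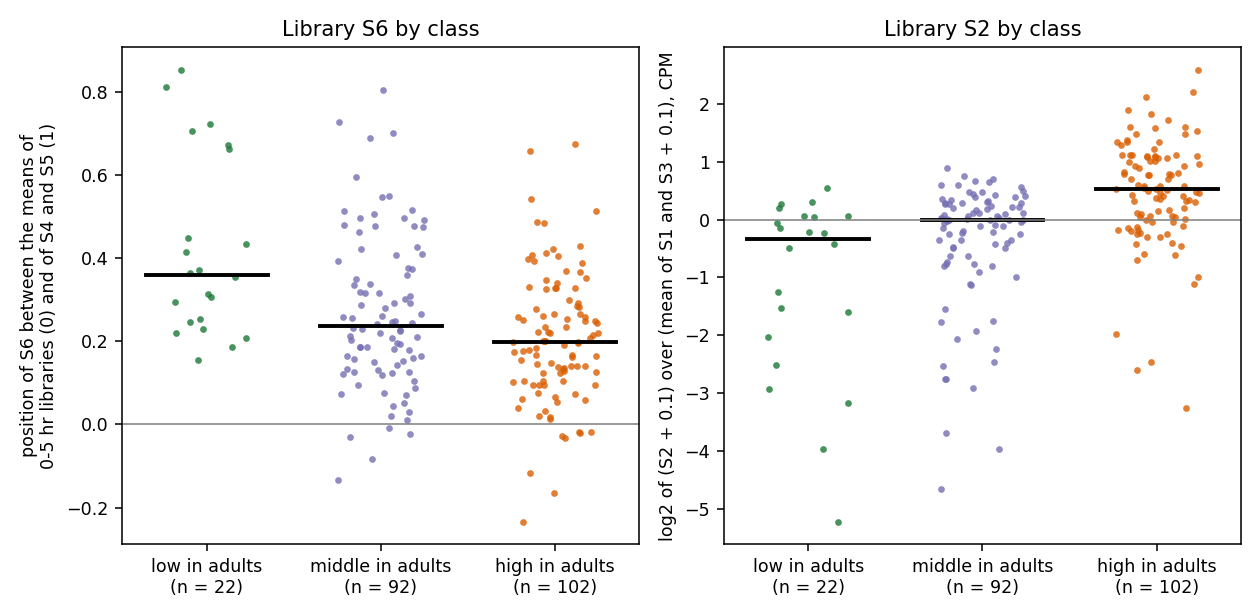
Left, the position of S6 for each member on the scale on which the mean log2(CPM + 1) of S1 to S3 is 0 and that of S4 and S5 is 1. Right, the log2 ratio of S2 to the mean of S1 and S3, with 0.1 CPM added to each. Points are members by adult class and bars are medians, which fall from 0.36 to 0.20 from low to high members on the left, while the high members lie mostly above 0 on the right.

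With all 17 libraries in one model (limma on log2(CPM + 1); a call needed a 2-fold difference with adjusted p below 0.01), 130 of the 210 members tested were called higher at 6-11 hr than at 0-5 hr, against 2.03% of all genes tested. None was called lower, against 2.11%, and none was lower at an unadjusted p under 0.05 or called by edgeR or DESeq2. This contrast chose the members, so nothing is read from the count. It rested on single libraries. It was 208 without S6, 41 without S4, 41 without S5, 54 without S1, 69 without S2 and 50 without S3. The 6 members not tested, TC004159, TC000547, TC010421, TC008653, TC006564 and TC011661, did not reach 5 CPM in 3 libraries and were all low in adults.

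The adult libraries took no part in the choice of members and allowed tests. For most members the highest adult mean was in a carcass group. Female carcass had the highest adult mean in 149 of the 216 members (71.0% of the 210 tested, against 28.1% of the genes tested), ovary in 29, testis in 25 and male carcass in 13. No tested member was called between male and female carcass, and S11 was low among the male carcass libraries for the high members. The counts of 149 and 13 are therefore not read as a difference between the sexes. At least 5 CPM in every library of the group was reached by 127 members in testis (background 80.6%), 169 in ovary (81.2%), 172 in male carcass (85.6%) and 179 in female carcass (84.5%). As shares of the 210 members tested these are 60.5%, 80.5%, 81.9% and 85.2%, so the distance to the background was largest in testis.

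Ovary was compared with female carcass because the ovary is where maternal RNA is made. Of the 210 members tested, 13 were called higher in ovary (background 19.8%) and 108 lower (background 25.3%), and the median log2 fold change was -1.53, against 0.05 over all genes tested. With library totals in place of the normalization factors these counts became 21 and 53, and the median over all genes shifted to 0.74 and that of the members to -0.78, so the members lay at -1.52 relative to all genes, against -1.57 with the factors. All of the 65 called high members and 42 of the 50 called middle members were lower in ovary, whereas 5 of the 6 called low members were higher. The classes were cut on the same adult libraries, so this split by class is a description.

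TC005249 was the member with the largest rise in ovary over female carcass. It had 28.6, 31.0 and 34.0 CPM in ovary, against 2.23, 0.596 and 0.367 CPM in female carcass (a log2 fold change of 4.07 ± 0.36 SE, limma adjusted p = 1.07e-07). Its embryo levels were 29.3, 30.6 and 11.8 CPM in S4, S5 and S6, against 5.68, 2.57 and 5.78 CPM in S1, S2 and S3, so S4 and S5 lay within the range of the ovary libraries and S1 to S3 below both. TC006578 had 17.2, 20.9 and 17.5 CPM in ovary, against 1.09, 0.546 and 0.105 CPM in female carcass (3.67 ± 0.35 SE, limma adjusted p = 2.43e-07). TC033499 had 11.0, 8.40 and 6.58 CPM in ovary, against 0.489, 0.199 and 0.157 CPM in female carcass (2.90 ± 0.35 SE, limma adjusted p = 2.83e-06). The neighbour of TC005249, TC005250, was also highest among adults in ovary, at 7.38 to 7.94 CPM, and the neighbour of TC033499, TC005083, at 2.67 to 3.53 CPM.

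Members lower in ovary included TC012828, with 1.89, 3.41 and 3.33 CPM in ovary, against 157, 222 and 171 CPM in female carcass (a log2 fold change of -5.58 ± 0.51 SE, limma adjusted p = 1.60e-07). TC014101 had 21.1, 46.8 and 46.1 CPM in ovary, against 1140.0, 1421 and 1276 CPM in female carcass (-5.11 ± 0.45 SE, limma adjusted p = 1.53e-07). TC015481 had 13.6, 23.3 and 28.5 CPM in ovary, against 452, 608 and 487 CPM in female carcass (-4.55 ± 0.36 SE, limma adjusted p = 3.19e-08). Ovary and carcass libraries did not overlap in any of them. In the same members the 6-11 hr libraries S4 and S5 held 10.8 to 44.2 CPM, within 4 times of the highest ovary library.

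The lowest ovary library exceeded the highest 0-5 hr library for 205 of the 216 members (94.9%), against 43.9% of the genes tested. The 0-5 hr level was used in choosing the members, so this is a description. The lowest ovary library exceeded the higher of S4 and S5 for 128 of the 216 members, against 5520 of the 12144 genes tested. S4 and S5 were used in the choice as well. The 5 with the highest lowest ovary library were TC030701, TC003326, TC033661, TC008240 and TC000933, from 454 to 3268 CPM.

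Testis was compared with male carcass in the same way. Of the 210 members, 13 were called higher in testis (background 27.5%) and 119 lower (background 30.2%), with a median log2 fold change of -1.73 against -0.03 over all genes. The second count fell to 73 without testis library S16, which leaves testis with 1 library that is assumed to vary like the other groups. TC014616 had 809 and 495 CPM in testis, against 19.8, 31.8 and 25.8 CPM in male carcass (log2 fold change 4.59 ± 0.54 SE, limma adjusted p = 1.62e-06). TC034894 had 104 and 84.6 CPM in testis, against 3.21, 3.27 and 4.30 CPM in male carcass (4.37 ± 0.36 SE, limma adjusted p = 2.81e-08). TC008020 had 876 and 525 CPM in testis, against 29.1, 42.5 and 35.4 CPM in male carcass (4.23 ± 0.29 SE, limma adjusted p = 4.06e-09).

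In embryos these members stood at lower levels. TC034894 had 27.3, 28.3 and 10.04 CPM in S4, S5 and S6, against 0.733, 0.0591 and 0.826 CPM in S1, S2 and S3, the 6-11 hr libraries lying between testis and all other adult groups. TC008020 had 6.94, 6.51 and 2.65 CPM in S4, S5 and S6, against 0.733, 0.797 and 0.854 CPM in S1, S2 and S3. TC014616 had 12.7, 11.5 and 2.42 CPM in S4, S5 and S6, against 2.84, 0.207 and 2.82 CPM in S1, S2 and S3, so S6 lay within the 0-5 hr range there. A list of 704 genes, none of them a member, at 5 CPM or more in testis and at least 16 times ovary, stood at 2.45%, 5.99% and 4.86% of its testis mean in the male carcass libraries S10, S11 and S12, and at 0.370% to 0.469% in female carcass. The level of this list thus differed between the male carcass libraries, and its part in these folds was not tested.

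The largest falls in testis relative to male carcass were in TC014101, TC014100 and TC011068. TC014101 had 13.4 and 10.1 CPM in testis, against 1034, 460.1 and 949 CPM in male carcass (log2 fold change -5.93 ± 0.50 SE, limma adjusted p = 6.77e-08). TC014100, which carries the number next to it, had 16.8 and 11.2 CPM in testis, against 1065, 511 and 945 CPM in male carcass (-5.77 ± 0.45 SE, limma adjusted p = 2.56e-08). TC011068 had 5.30 and 4.93 CPM in testis, against 427, 198 and 367 CPM in male carcass (-5.69 ± 0.63 SE, limma adjusted p = 1.13e-06). S11 was the lowest male carcass library in each, and still far above testis.

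Between testis and ovary, 13 members were called higher in testis (background 22.1%) and 55 lower (background 21.1%), with a median log2 fold change of -0.78 against -0.03 over all genes. The number lower was 29 without testis library S16. TC034894 had 104 and 84.6 CPM in testis, against 0.362, 0.152 and 0.681 CPM in ovary (log2 fold change 6.10 ± 0.36 SE, limma adjusted p = 8.06e-10). TC008020 had 876 and 525 CPM in testis, against 11.2, 11.3 and 12.4 CPM in ovary (5.75 ± 0.29 SE, limma adjusted p = 1.51e-10). TC006056 had 497 and 493 CPM in testis, against 19.6, 14.9 and 17.1 CPM in ovary (4.78 ± 0.27 SE, limma adjusted p = 5.83e-10). TC006056 lay just inside both thresholds of the rule, with 5.02, 5.29 and 2.28 CPM in S4, S5 and S6, against 1.25, 1.03 and 1.25 CPM in S1, S2 and S3.

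Lower in testis were TC008757, with 13.8 and 13.4 CPM in testis against 242, 372 and 434 CPM in ovary (log2 fold change -4.54 ± 0.71 SE, limma adjusted p = 5.91e-05), and TC005493, with 3.71 and 4.76 CPM in testis against 81.3, 122 and 114 CPM in ovary (-4.34 ± 0.35 SE, limma adjusted p = 3.34e-08). TC006578, one of the members raised in ovary over female carcass, had 0.118 and 0.172 CPM in testis, against 17.2, 20.9 and 17.5 CPM in ovary (-4.09 ± 0.40 SE, limma adjusted p = 2.48e-07). These comparisons share the testis and ovary libraries with those above. The difference of gonad and carcass itself differed between the sexes for 30 members, 10 of them with a higher value in males (background 18.7%) and 20 with a lower one (background 15.3%).

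Between male and female carcass no member was called in either direction (backgrounds 5.13% higher and 0.0658% lower), by limma or by edgeR's quasi-likelihood test. At an unadjusted p under 0.05 limma gave 3 members higher, against 8.26% of all genes, and 3 lower, against 17.3%, and DESeq2 and edgeR's likelihood ratio test each called 2 higher and none lower. The log2 fold change was below 0 for 181 of the 210 members, with a median of -0.39 against -0.09 over all genes, or -0.24 against 0.06 with library totals. The share of all genes below 0 is not given here, so nothing is read from the count of 181. S11 was the lowest carcass library in sum over the high members, at 39133 CPM, against 56182 CPM in S10 and 52839 CPM in S12.

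**Figure D4:**
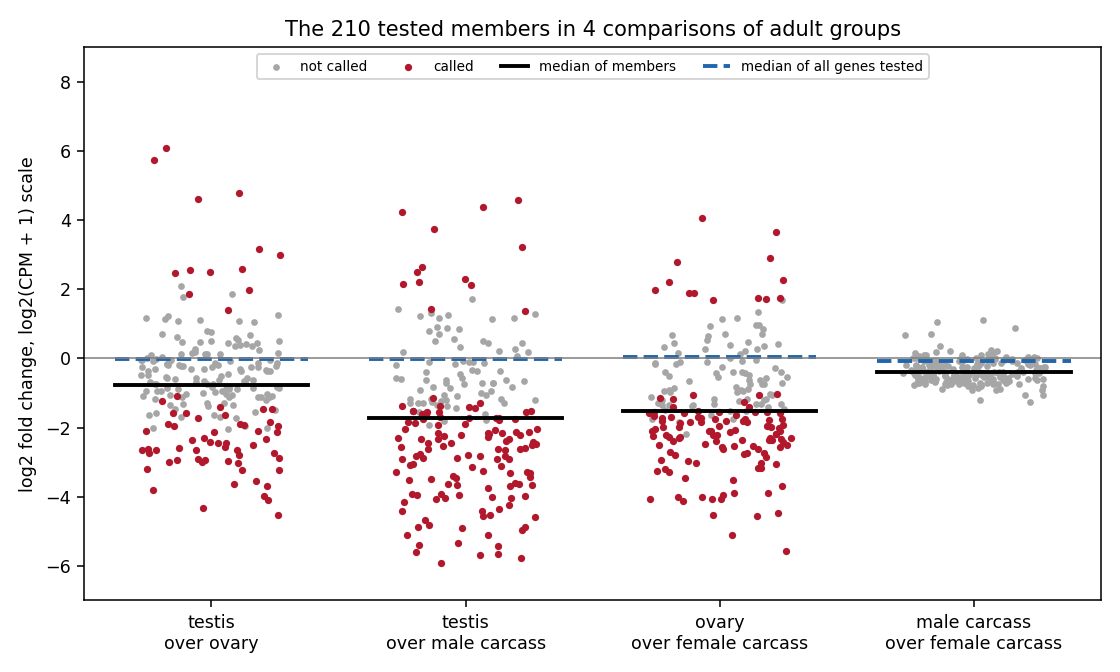
Log2 fold change of the 210 tested members (points) in 4 comparisons of adult groups, on the log2(CPM + 1) scale, with called members in red. Black bars are medians of the members and dashed blue bars medians of all genes tested, at -1.73 and -0.03 for testis over male carcass and at -1.53 and 0.05 for ovary over female carcass.

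Some members lay next to each other in the numbering of gene models. With numbers at most 2 apart counted as neighbours, 49 of the 216 members (22.7%) fell into 18 runs, of which 13 held 2 members. The same share was not computed for other gene models, so nothing is read from this count. The run of 7 comprised TC033528, TC034758, TC033527, TC034759, TC033526, TC034760 and TC031177, with numbers from 9143 to 9149. They had 25.1 to 78.7 CPM in S4, 19.4 to 76.2 CPM in S5 and 2.65 to 8.23 CPM in S6, against 0.825 to 1.83 CPM in S1, 1.62 to 3.81 CPM in S2 and 0.683 to 1.57 CPM in S3. All were high in adults and in all of them S2 was the highest 0-5 hr library.

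The run of 6 comprised TC033661, TC009099, TC033662, TC033663, TC009096 and TC033664, with numbers from 9836 to 9842. Its first member, TC033661, had 116, 109 and 15.3 CPM in S4, S5 and S6, against 4.31, 7.71 and 4.58 CPM in S1, S2 and S3. The other 5 had 9.35 to 67.0 CPM in S4 and 1.21 to 9.34 CPM in S6, against 8.86 CPM or less in S1 to S3. Members of a run may share reads where copies are near identical. TC035047 and TC032961, neighbours by number, had the same value in all 17 libraries, and TC032164 and TC000488 agreed within 10% in all 17, so the reads of each pair may not have been told apart.

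**Figure D5:**
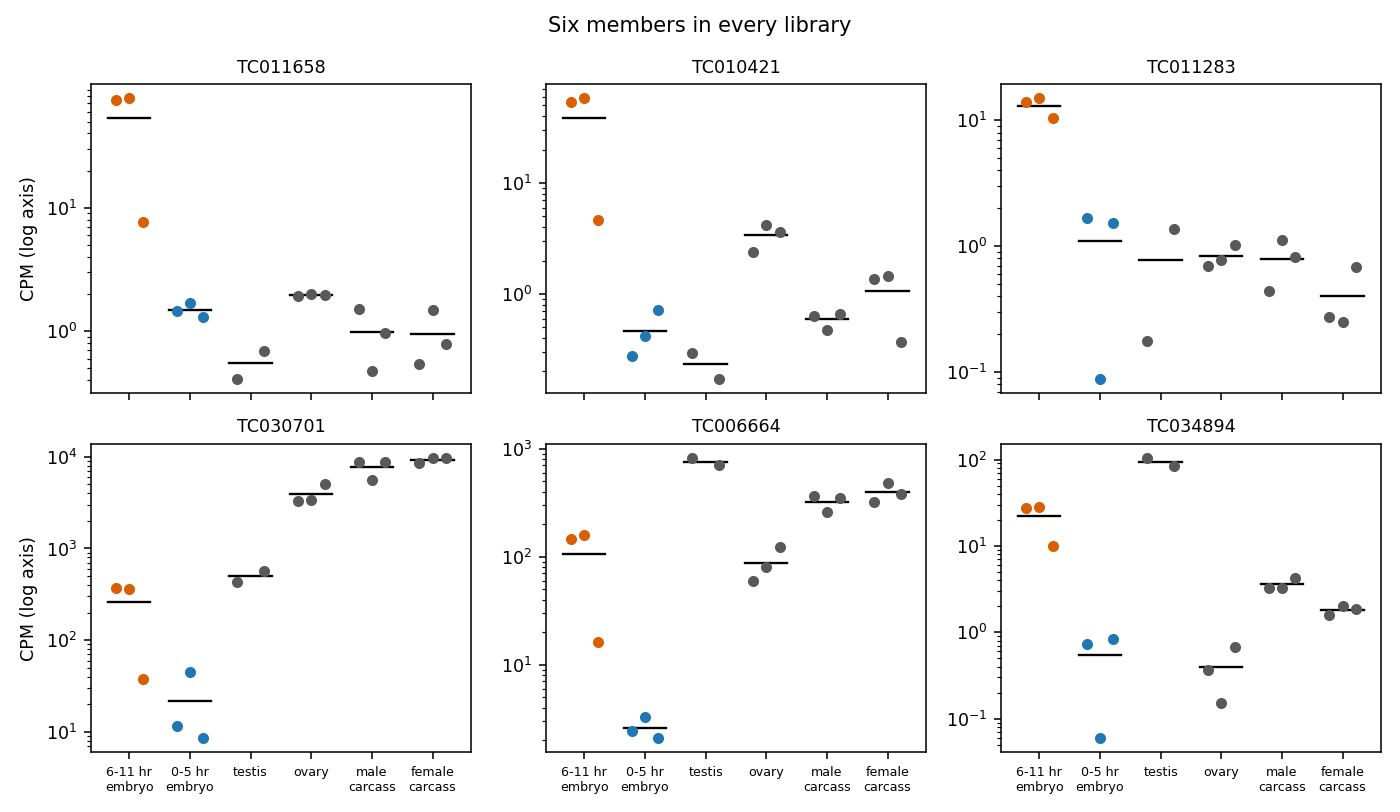
CPM (log axis) of TC011658, TC010421, TC011283, TC030701, TC006664 and TC034894 in every library, with 6-11 hr embryos in orange, 0-5 hr embryos in blue, adult groups in grey and bars at group means. S6 is the lowest of the 3 orange points in each panel, and TC030701 and TC006664 are higher in carcass than in any embryo library, while TC011658, TC010421 and TC011283 are higher in S4 and S5 than in any adult library.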

How the data were processed

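Poly(A) RNA was sequenced as unpaired 75-nt reads with a kit that does not mark strand. The authors used HISAT2 2.0.5 for alignment, BEDTools for counting over gene models and edgeR's TMM factors for normalization. The deposited signal values are these normalized CPM. They hold no counts, but dividing by the value of 1 read gave whole reads within 0.01 read for 100% of 209134 values.

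Members and lists were chosen with earlier results of these data known. The 12152 gene models that reached 5 CPM in 3 or more libraries were tested with limma 3.58.1 (R 4.3.3) on log2(CPM + 1), trended and robust, with all 17 libraries and 6 group means. A call needs a 2-fold difference either way with p below 0.01 after Benjamini-Hochberg adjustment over all genes tested. Shares of the genes tested leave out the 8 identifiers not analysed here. Fold changes on this scale understate changes of low genes. The fit was tested on simulated data. Alternatives were pseudocounts of 0.1 and 5 CPM, other filters, library totals, RLE factors, only the groups compared, other thresholds, each library left out, and edgeR 4.0.16 and DESeq2 1.42.0 on the recovered reads. The interaction of sex and gonad was added after the data were seen. Summaries used Python 3.11.15, pandas 2.3.3 and matplotlib 3.10.9.

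Members named were those annotated in the study's text, the 12 with the highest lower value of S4 and S5, the 10 with the largest ratio, those at the thresholds, the 3 with the largest fold each way in each adult comparison, the 3 highest and 3 lowest in S6 relative to S4 and S5, and the 5 highest by lowest ovary library. Members named as examples of low levels in S2, of runs or of levels above adults were chosen after their values were seen. Of 15518 genes in the reference table, none matched a member, so sequence features were not analysed here. The embryo replicates were described as independent, while for the adult replicates the study's text does not state whether they were collected separately. Intervals and limits from read numbers cover counting error only.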

Additional observations from a re-analysis of the deposited data

Results flagged for a closer look

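For 30 members the difference between testis and male carcass differed from that between ovary and female carcass, by the interaction term of the same limma model (10 higher against a background of 18.7%, and 20 lower against 15.3%). TC034894 had the largest positive term (log2 5.40 ± 0.48 SE, limma adjusted p = 3.59e-07), with 104 and 84.6 CPM in testis against 3.21 to 4.30 CPM in male carcass, and 0.152 to 0.681 CPM in ovary against 1.58 to 2.04 CPM in female carcass. TC008020 (4.65 ± 0.39 SE, limma adjusted p = 1.85e-07) and TC006056 (3.73 ± 0.37 SE, limma adjusted p = 8.52e-07) followed. The largest negative terms were in TC008757 (-4.14 ± 0.96 SE, limma adjusted p = 0.00222), TC006578 (-4.03 ± 0.53 SE, limma adjusted p = 1.44e-05) and TC005493 (-3.70 ± 0.48 SE, limma adjusted p = 1.10e-05). TC006578 was at 0.118 and 0.172 CPM in testis against 0.307 to 0.633 CPM in male carcass, and at 17.2 to 20.9 CPM in ovary against 0.105 to 1.09 CPM in female carcass. With library totals the counts were 5 higher and 44 lower, and without testis library S16 they were 16 higher and 8 lower, with TC008757 no longer called (limma adjusted p = 0.0109).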

How the results depend on the processing

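The numbers of members called moved by over 1.5 times under the following settings, and no cause was tested. For 6-11 hr over 0-5 hr, which chose the members, 130 called members became 55 with a pseudocount of 5 CPM, 208 with edgeR's likelihood ratio test, 209 with DESeq2, 21 with only the groups compared, 71 at a log2 threshold of 2, 203 at an adjusted p of 0.05, and 41 to 208 with 1 library left out. For testis over ovary, 13 higher became 20 at an adjusted p of 0.05 and 9 to 18 with 1 library left out, and 55 lower became 29 to 54. For testis over male carcass, 13 higher became 21 with the likelihood ratio test, 20 with DESeq2 and 11 to 17 with 1 library left out, and 119 lower became 73 to 113. For ovary over female carcass, 13 higher became 21 with library totals, 6 at a log2 threshold of 2 and 10 to 11 with 1 library left out, and 108 lower became 53, 68 and 88 to 98 in these settings. For male over female carcass, 0 higher became 2 with library totals, RLE factors, the likelihood ratio test, DESeq2 or an adjusted p of 0.05, and 0 to 2 with 1 library left out. For the interaction of sex and gonad, 10 higher became 6 with a pseudocount of 0.1 CPM, 5 with library totals, 20 at an adjusted p of 0.05 and 7 to 16 with 1 library left out, and 20 lower became 44 with library totals, 36 with DESeq2, 44 with only the groups compared, 44 at an adjusted p of 0.05 and 8 to 21 with 1 library left out. The 216 members became 514 at a minimum of 1 CPM, 123 at 10 CPM, 447 at a ratio of 2, 96 at a ratio of 8, 8 with S6 in the rule and 220 to 250 with 1 library left out. S6 exceeded the highest 0-5 hr library for 176 members, for 72 at 2 times or more and for 176 to 202 with 1 library left out. For 24 results of single members, 449 of 450 values kept their direction and call, and none reversed. These were picked for the largest folds in the adult comparisons and the interaction, so the count does not speak for the other members.

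Far under 1 CPM single reads limit the values, which touches part of the members in 0-5 hr embryos. There the median of the member means was 1.17 CPM, and 1 read was worth 0.0285 to 0.0306 CPM. Testis has 2 libraries, S6 is 1 library, and S2 and S11 stood apart within their groups. No paired analysis was made, because the labels do not say whether a gonad and a carcass library came from the same beetles. The tests treated all libraries as independent.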
